A study of Ranunculus trichophyllus with 6 samples.

Results

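Homologs of 7 enzymes and cell wall proteins of the lignin pathway were followed in *Ranunculus trichophyllus*, an amphibious plant of the buttercup family that makes broad leaves on land and thin, cylindrical leaves under water. The transcripts were those whose best match in the deposited annotation is one of 7 *Arabidopsis thaliana* proteins: F5H (AT4G36220), CCR1 (AT1G15950), CAD9 (AT4G39330), UGT72E1 (AT3G50740), the dirigent family protein AT5G49040, LAC17 (AT5G60020) and TT10 (AT5G48100). They are 16 of the 17559 transcripts with an *Arabidopsis* match, and 7 of the 8613 homologs into which those transcripts were merged by match. These homologs were chosen by the difference of their counts between aquatic and terrestrial plants in the same libraries, so their difference between conditions is described here and not tested. No threshold was part of the choice.

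Lignin is a polymer of the secondary wall that stiffens and waterproofs xylem vessels. Its building blocks, the monolignols, are made from phenylalanine inside the cell. There F5H adds the hydroxyl group that leads to sinapyl units, CCR reduces the CoA esters to aldehydes and CAD reduces the aldehydes to alcohols. Glucosyltransferases can store these compounds as glucosides, while laccases and peroxidases oxidise them in the wall, where dirigent proteins steer the coupling of such radicals into lignans and related products. These roles are known from *Arabidopsis* and other land plants, and the *Ranunculus* transcripts were named by sequence match alone.

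RNA came from shoots of *R. trichophyllus* (var. *kadzusensis* in the study's methods) grown on land (terrestrial) or soaked as seedlings and grown under water (aquatic), at 22°C with 16 h of light, in 3 libraries per condition. The labels give replicate 1 of both conditions as leaf at 14 days, and replicates 2 and 3 as leaf with shoot apical meristem at 11 days. Age and tissue therefore change together between the harvests and cannot be told apart. The study's methods describe only a single harvest time for sequencing, so the contrast of harvests rests on the labels. As the source of RNA those methods name tissue of whole plants, while a figure legend of the study names the upper parts of seedlings. The study calls its experiments independent, but neither it nor the labels say which plants went into each library, so p-values measure the spread between these samples, part of which may be technical. No transgene or mutation is named for any group. Expected counts, the estimated fragments of each assembled transcript, summed to 25345718 to 33978729 per library. CPM below are counts scaled to the counts on all homologs of a library, after TMM scaling. Values of single libraries are given in the order of replicates 1, 2 and 3, first on land (terrestrial) and then under water (aquatic).

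Some facts of the libraries touch the values that follow. Aquatic replicate 1 held 36.2% of its counts in 3 transcripts without an annotation, against 0.287 to 0.987% elsewhere, and these do not enter CPM. Fungal best matches were detected for 1643 transcripts in aquatic replicate 2 and for 54 to 161 in any other library, with 0.946% and 0.141 to 0.241% of the counts on annotated transcripts. Of 2 leaf markers with a homolog, RBCS1A and RCA, the summed level was 11328 to 25284 CPM on land and 7746 to 8901 CPM under water. RBCS1A was lower in aquatic plants (edgeR adjusted p = 0.0335), but not with the replicate number as a block (edgeR adjusted p = 0.0878). RCA did not pass (edgeR adjusted p = 0.0769). The 7 of 10 markers of the shoot apex and dividing cells with a homolog summed to 31.3 and 15.9 CPM in the 14-day libraries, and to 204 to 515 CPM in the 11-day ones. STM was at 0 in both 14-day libraries and CYCD3;1 in the aquatic one. Of these 7, 6 fell in aquatic plants and 6 were lower at 14 days (adjusted p under 0.05 from edgeR), and with the replicate number as a block 1 of the aquatic calls was kept and 5 had an adjusted p of 0.0686 to 0.105. The 4 of 9 root markers with a homolog summed to 26.1 to 76.5 CPM on land and 26.4 to 71.8 CPM under water. None of the 4 flower markers had a homolog.

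Of the homologs, 6 were higher and 1 lower in aquatic plants, and the CPM of the conditions did not overlap for 7 of 7. Over all 8154 homologs tested, 25.6% did not overlap, and 16.4% passed an adjusted p of 0.05 between conditions, 9.6% higher and 6.78% lower. As the choice used this contrast, nothing is read from the counts of the 7 against these shares. Values of each library stand in the plot of CPM by homolog.

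**Figure D1:**
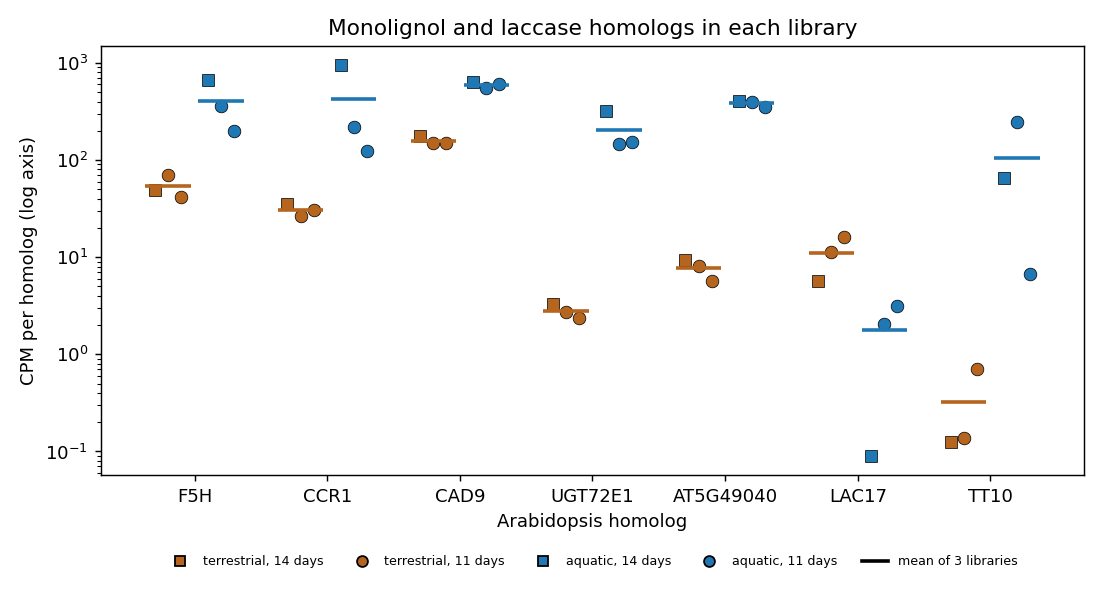
CPM of the 7 homologs (x axis) in each of 6 libraries on a log axis, terrestrial in brown and aquatic in blue, with squares for 14-day leaf, circles for 11-day leaf with shoot apex, and a line at the mean of 3 libraries. For 6 homologs every aquatic library lies above every terrestrial one, and for LAC17 every aquatic library lies below.

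F5H, a cytochrome P450 that hydroxylates coniferaldehyde and coniferyl alcohol on the way to syringyl lignin, was higher in all aquatic libraries. Its level was 49.3, 70.3 and 41.2 CPM on land and 665, 356 and 200 CPM under water. The conditions did not overlap, and the 14-day library was the highest of the aquatic ones. The means were 53.6 ± 15.0 CPM (SD, n = 3) and 407 ± 236 CPM (SD, n = 3), a log2 fold change of 2.79 with a standard error of 0.46. Aquatic over terrestrial, libraries of the same number gave ratios of 13.5, 5.06 and 4.86. The F5H match is shared by 3 transcripts, whose values differed. The transcript c55855_g1_i1, with 66% identity to the *Arabidopsis* protein, had 101, 358 and 167 counts on land and 6431, 4245 and 2445 counts under water. It made up 12.7 to 34.7% of the F5H counts on land and 75.2 to 87.1% under water, and its log2 fold change was 4.47 with a standard error of 0.77. The transcript c62565_g2_i3, with only 39% identity, had 459, 472 and 357 counts on land and 557, 351 and 385 counts under water, which overlapped. Its log2 fold change was 0.06 with a standard error of 0.26. The transcript c63197_g1_i1, with 43% identity, lay in between, with a log2 fold change of 1.44 and a standard error of 0.29. Matches this weak do not fix which cytochrome P450 a transcript encodes, and another transcript of the assembly gene of c63197_g1_i1 is matched to TT7, a flavonoid hydroxylase of that superfamily. With matches of at least 50% identity alone, the log2 fold change of F5H was 4.52.

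CCR1, the cinnamoyl-CoA reductase of lignin synthesis in stems, was also higher in all aquatic libraries, by amounts that varied widely between them. Its level was 34.9, 26.6 and 30.3 CPM on land and 941, 220 and 125 CPM under water. The terrestrial libraries lay close together, whereas the 14-day aquatic library stood far above the other aquatic ones. The means were 30.6 ± 4.18 CPM (SD, n = 3) and 429 ± 446 CPM (SD, n = 3), a log2 fold change of 3.29 with a standard error of 0.56. Between libraries of the same number the ratio was 26.9, 8.27 and 4.12. The 3 CCR1 transcripts belong to 1 assembly gene, with 70 to 75% identity, and their log2 fold changes were 2.80, 3.31 and 3.76. The longest of them held 68.3 to 76.0% of the counts in terrestrial and 76.3 to 81.0% in aquatic libraries.

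CAD9, a member of the cinnamyl alcohol dehydrogenase family, had the smallest standard error of the 7. It had 175, 150 and 151 CPM on land and 633, 555 and 603 CPM under water. Each group was narrow, and the gap between them was many times the spread within them. The means were 159 ± 14.2 CPM (SD, n = 3) and 597 ± 39.4 CPM (SD, n = 3), with a log2 fold change of 1.92 and a standard error of 0.11. Aquatic over terrestrial, libraries of the same number gave ratios of 3.62, 3.70 and 4.0. A single transcript, c77306_g1_i1, carries this match at 68% identity.

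UGT72E1 is a glucosyltransferase that in *Arabidopsis* acts on coniferyl and sinapyl aldehyde. The homolog was low on land, with 3.28, 2.72 and 2.38 CPM from 53, 40 and 37 counts. Under water it had 316, 147 and 152 CPM in replicates 1 to 3. The 14-day library was again the highest of the aquatic ones, and the conditions were far apart. The means were 2.79 ± 0.457 CPM (SD, n = 3) and 205 ± 96.6 CPM (SD, n = 3), a log2 fold change of 6.11 with a standard error of 0.22. The ratio between libraries of the same number was 96.3, 53.8 and 63.8. Its single transcript, c57798_g3_i1, has only 40% identity to UGT72E1, which does not fix which member of this large family it encodes.

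AT5G49040 belongs to the dirigent family, whose members guide the coupling of monolignol radicals. The homolog had 9.29, 8.16 and 5.66 CPM on land and 409, 393 and 355 CPM under water. Within each condition the libraries were close, and no aquatic library stood apart. The means were 7.70 ± 1.86 CPM (SD, n = 3) and 386 ± 27.6 CPM (SD, n = 3), a log2 fold change of 5.66 with a standard error of 0.22. Nearly all counts came from c54966_g1_i2, with 46% identity, which had 150, 113 and 83 counts on land and 4471, 5614 and 5734 counts under water. The other transcripts, c54135_g1_i1 and c54135_g1_i2, come from another assembly gene and had 0 to 6 counts in any terrestrial and 12 to 70 counts in any aquatic library. All 3 matches to AT5G49040 had 40 to 46% identity.

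The dominant AT5G49040 transcript shares its assembly gene with a transcript matched to another dirigent protein, AT1G55210, and their balance differed between conditions. The AT1G55210 transcript had 2354, 1311 and 1146 counts on land and 2323, 2206 and 2487 counts under water, a log2 fold change of 0.70 with a standard error of 0.16. The AT5G49040 transcript made up 5.99, 7.94 and 6.75% of the counts of the assembly gene on land. Under water it made up 65.8, 71.8 and 69.7%. Exact (Clopper-Pearson) 95% intervals, which cover counting error only, reached at most from 5.09 to 9.46% on land and from 64.7 to 72.8% under water. An assembly gene can hold paralogs or alternative transcripts, and which of them these are was not tested.

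LAC17, one of the laccases that polymerise lignin in *Arabidopsis* stems, was the only homolog of the 7 that was lower in aquatic plants. It had 91, 168 and 251 counts on land and 1, 30 and 51 counts under water, or 5.64, 11.4 and 16.1 CPM against 0.0900, 2.06 and 3.14 CPM. The conditions did not overlap, and in both of them the 14-day library was the lowest. The means were 11.1 ± 5.26 CPM (SD, n = 3) and 1.76 ± 1.55 CPM (SD, n = 3), a log2 fold change of -2.93 with a standard error of 0.59. At 14 days the ratio of terrestrial to aquatic CPM was 62.6, with a 95% counting interval of 10.96 to 2500, since it rests on a single aquatic count. The 4 transcripts with this match have 73 to 79% identity, the highest of the set, and 3 of them had enough counts to be fitted. Their log2 fold changes were -3.32, -2.21 and -1.32.

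Markers of xylem, the tissue in which LAC17 acts in *Arabidopsis*, had 4 negative and 2 positive log2 fold changes. The 6 of 9 xylem markers with a homolog summed to 49.9, 92.2 and 128 CPM on land and 10.7, 33.8 and 44.6 CPM under water. Of these, 2 passed as lower in aquatic plants, IRX6 and VND4 (edgeR adjusted p = 0.0408 and 0.0328). With the replicate number as a block neither passed (edgeR adjusted p = 0.0879 and 0.0556). XCP1 and IRX6 were at 0 in aquatic replicate 1. Most of the sum was XCP1, a xylem protease, with 32.7, 66.3 and 96.8 CPM on land and 0, 20.4 and 28.2 CPM under water, which did not pass (edgeR adjusted p = 0.136). CESA4 had a log2 fold change of -1.78 and did not pass (edgeR adjusted p = 0.126), while CESA7 and VND7 had 0.41 and 0.05. The VND7 value rests on 14, 9 and 12 counts on land and 11, 8 and 13 counts under water. By real-time PCR, the study reports less RtVND7 in aquatic than in terrestrial leaves. That PCR was on leaves, while some libraries here held the shoot apex as well. Whether it measured the transcript matched here is not known, so the values are not compared. In RNA from leaves with or without the shoot apex, fewer cells of a type and less RNA per cell cannot be told apart. The part of these markers in the LAC17 values was not tested.

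TT10 (LAC15), a laccase that in *Arabidopsis* oxidises flavonoids in the seed coat, had the largest standard error of the 7. It had 2, 2 and 11 counts on land and 726, 3564 and 109 counts under water. In CPM these were 0.124, 0.136 and 0.707 against 65.4, 245 and 6.72. The conditions did not overlap, although aquatic replicate 2 had far more than aquatic replicate 3 of the same harvest. The means were 0.322 ± 0.333 CPM (SD, n = 3) and 106 ± 124 CPM (SD, n = 3). The ratio between libraries of the same number was 528 (95% counting interval 146 to 4364), 1801 (498 to 14877) and 9.50 (5.10 to 19.6). Its log2 fold change of 8.34, with a standard error of 1.75, was the largest of the 7, but it was 5.83 without aquatic replicate 2, the library with the most fungal matches, and then lay below UGT72E1 at 6.19. In limma on log2(FPKM + 1) it was 3.96, below AT5G49040 at 5.42 and UGT72E1 at 4.81. The part of those transcripts in the TT10 values was not tested.

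The single TT10 transcript, c62647_g1_i2 at 52% identity, lies in an assembly gene with a transcript matched to LAC14, another laccase. The LAC14 transcript had 51, 166 and 193 counts on land and 937, 4514 and 283 counts under water, with aquatic replicate 2 again the highest. Its log2 fold change was 4.01 with a standard error of 1.02. TT10 made up 3.77, 1.19 and 5.39% of the counts of this assembly gene on land, and 43.7, 44.1 and 27.8% under water. The intervals were wide on land, up to 0.460 to 13.0% in the 14-day library. The TT10 and LAC14 homologs together had 3.28, 11.4 and 13.1 CPM on land and 150, 555 and 24.2 CPM under water.

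**Figure D2:**
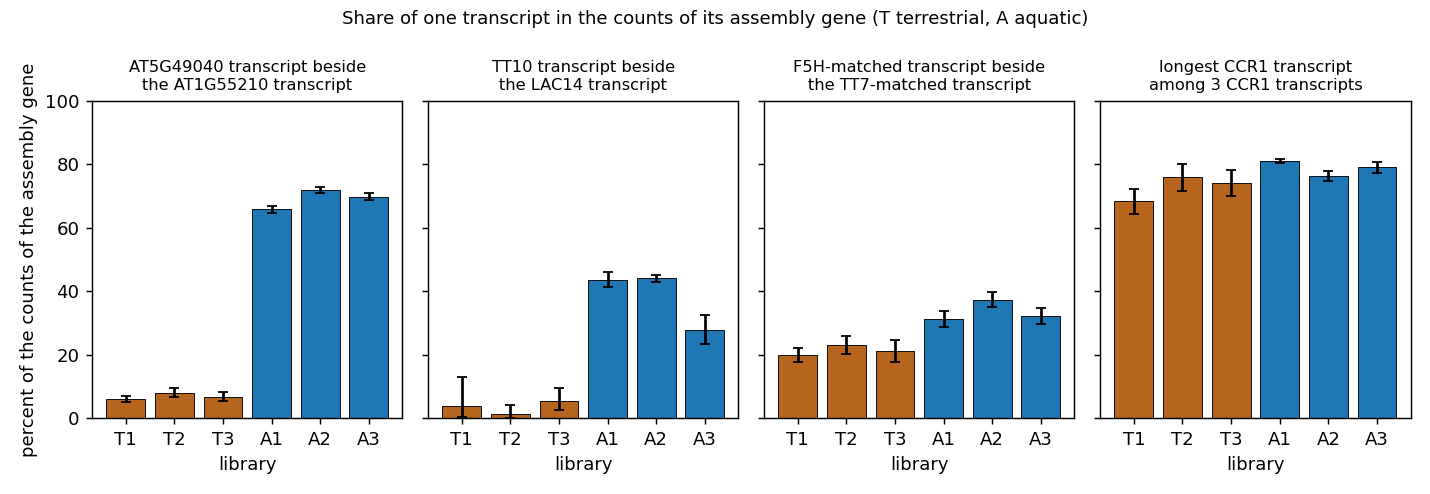
Percent of the counts of an assembly gene (y axis) held by 1 of its transcripts in each library (T terrestrial, A aquatic, replicates 1 to 3), with exact 95% counting intervals as bars. For each transcript drawn the share was larger in every aquatic than in every terrestrial library. It went from 5.99 to 7.94% on land to 65.8 to 71.8% under water for AT5G49040. For the longest CCR1 transcript it went only from 68.3 to 76.0% to 76.3 to 81.0%. There the intervals of terrestrial replicate 2 (71.4 to 80.1%) and aquatic replicate 2 (74.8 to 77.7%) overlapped. The F5H-matched transcript of 39% identity, whose share was smaller under water, is not drawn.

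A smaller shift of this kind was seen for the F5H-matched transcript of 43% identity beside its TT7-matched neighbour, from 19.8 to 23.0% on land to 31.3 to 37.4% under water. The F5H-matched transcript of 39% identity went the other way, from 99.4, 99.2 and 96.2% of its assembly gene on land to 91.3, 60.9 and 87.1% under water. At the level of single transcripts, 15 of the 16 could be fitted among 58039 transcripts. By the sign of the log2 fold change alone, 12 of these were higher and the 3 of LAC17 lower in aquatic plants. The 12 include the F5H-matched transcript of 39% identity, at 0.06 with a standard error of 0.26, whose counts overlapped between conditions. As the choice used this contrast, nothing is read from these counts of transcripts.

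Levels were compared between homologs per length, as TPM, the deposited unit that is scaled to all transcripts of a library. In aquatic replicate 1 this scale includes the 3 abundant transcripts without an annotation. On land CAD9 was the highest at 68.2 ± 4.01 TPM (SD, n = 3), above F5H at 22.9 ± 5.87 TPM (SD, n = 3) and CCR1 at 14.2 ± 2.07 TPM (SD, n = 3). AT5G49040 at 6.10 ± 1.28 TPM (SD, n = 3) and LAC17 at 4.97 ± 2.57 TPM (SD, n = 3) overlapped in their ranges. UGT72E1 at 0.840 ± 0.101 TPM (SD, n = 3) and TT10 at 0.140 ± 0.147 TPM (SD, n = 3) were the lowest. Under water AT5G49040 at 262 ± 16.1 TPM (SD, n = 3) came first, followed by CAD9 at 220 ± 10.7 TPM (SD, n = 3), CCR1 at 153 ± 147 TPM (SD, n = 3), F5H at 124 ± 57.1 TPM (SD, n = 3) and UGT72E1 at 51.9 ± 19.9 TPM (SD, n = 3). TT10 at 38.7 ± 47.2 TPM (SD, n = 3) and LAC17 at 0.767 ± 0.650 TPM (SD, n = 3) closed that order. The ranges of AT5G49040 and CAD9 did not overlap, those of CAD9, CCR1, F5H, UGT72E1 and TT10 each overlapped with the next, and LAC17 lay apart from TT10. By mean, the dirigent homolog was thus below CAD9, F5H and CCR1 on land and above them under water, and LAC17 came to lie below UGT72E1 and TT10. The aquatic ranges of CCR1 and the dirigent homolog overlapped, with CCR1 the higher in aquatic replicate 1, at 321 against 254 TPM.

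The annotation gave 5 of the 7 homologs, CAD9, CCR1, F5H, LAC17 and TT10, the GO term lignin biosynthetic process. AT5G49040, CAD9, LAC17 and TT10 were placed in the apoplast, the space outside the plasma membrane. AT5G49040 was also placed in the chloroplast, and CAD9 also in the cytoplasm. LAC17 and TT10 shared copper ion binding, as laccases use copper, and also the term lignin catabolic process. AT5G49040 had terms for lignan biosynthesis and defense response.

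The difference between the 14-day and the 11-day harvest is a contrast that the choice of the homologs did not use, and it was tested. It shares its fit and residual spread with the condition contrast behind that choice, so the harvest test is not fully independent of the choice. UGT72E1 was 0.78 higher at 14 days on the log2 scale, with a standard error of 0.19 (edgeR adjusted p = 0.0326), and it was the only 1 of 7 to pass. Of all homologs, 33.8% passed this test, and 46.6% had an unadjusted p under 0.05. CCR1 had a log2 difference of 1.52 (standard error 0.55, edgeR adjusted p = 0.0875) and LAC17 of -1.998 (standard error 0.66, edgeR adjusted p = 0.0707). For F5H (0.60, standard error 0.45), AT5G49040 (0.27, standard error 0.19), CAD9 (0.17, standard error 0.11) and TT10 (-1.05, standard error 1.61) the adjusted p was 0.282 to 0.639. At an unadjusted p under 0.05, 3 of the 7 passed. DESeq2 called 3 of the 7 after adjustment, UGT72E1, CCR1 and LAC17, and 3608 of all 8154 homologs. The UGT72E1 call was lost without any 1 of 5 libraries, all but terrestrial replicate 1, with an edgeR adjusted p of 0.0570 to 0.183, and with upper quartile scaling (edgeR adjusted p = 0.0501). For UGT72E1 the log2 difference was 0.43 without aquatic replicate 1 and 1.08 without terrestrial replicate 1. Its level at 14 days was 316 CPM under water, against 147 and 152 CPM at 11 days. On land it was 3.28 CPM at 14 days, against 2.72 and 2.38 CPM at 11 days. The markers of the shoot apex were lower at 14 days for 6 of 7, and their part in the harvest differences was not tested.

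**Figure D3:**
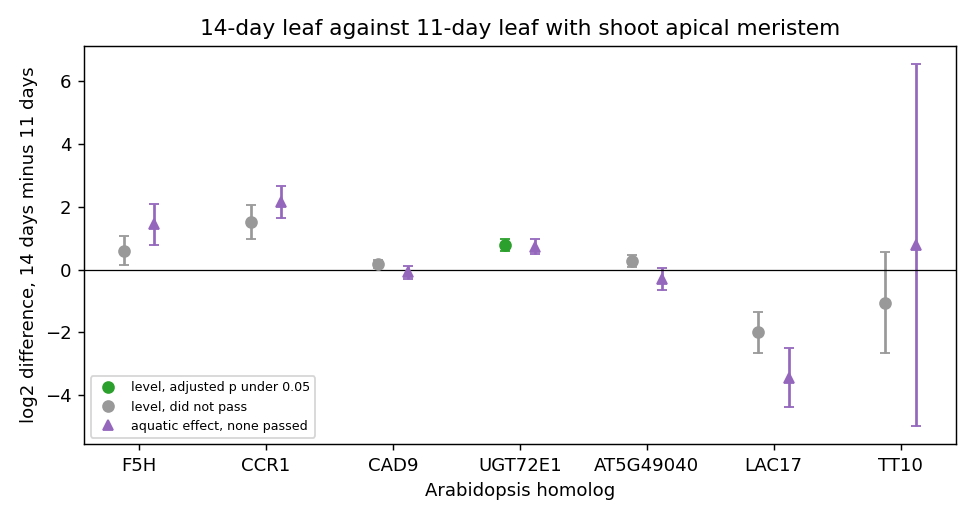
Log2 difference between the 14-day and the 11-day harvest for each of the 7 homologs with its standard error (bars), and the difference in the aquatic effect between the harvests with its standard error. UGT72E1 was the only homolog whose harvest difference, 0.78, passed an adjusted p of 0.05, and none passed for the aquatic effect.

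The aquatic effect itself could differ between the harvests, which was fitted as an interaction term. With 1 library per condition at 14 days, the spread in this fit comes only from the 11-day libraries, and the 14-day ones are assumed to vary alike. The effect on CCR1 was larger at 14 days by 2.15 on the log2 scale, with a standard error of 0.52 (edgeR adjusted p = 0.110), and that on LAC17 was more negative by 3.44 (a difference of -3.44, standard error 0.93, edgeR adjusted p = 0.133). F5H had 1.43 (standard error 0.67), UGT72E1 0.72 (standard error 0.24), CAD9 -0.09 (standard error 0.21), AT5G49040 -0.30 (standard error 0.35) and TT10 0.78 (standard error 5.77). In edgeR 0 of the 7 passed, against 4.61% of all homologs, while 3 did at an unadjusted p under 0.05, against 19.8%. DESeq2 called CCR1 (adjusted p = 0.0013). Without 1 of the 11-day libraries the spread rests on a single pair, and the edgeR adjusted p of CCR1 then ran from 0.00867 without aquatic replicate 2 and 0.0261 without aquatic replicate 3 to 0.274 without terrestrial replicate 3, so no call is read from these fits. The homologs had been chosen by the condition difference in these libraries, so this test is not fully independent of the choice. Within the 11-day harvest alone the log2 fold changes of the 7 were 2.32 for F5H, 2.60 for CCR1, 1.95 for CAD9, 5.87 for UGT72E1, 5.76 for AT5G49040, -2.39 for LAC17 and 8.17 for TT10.

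Other genes of the pathway were taken from lists of monolignol synthesis, storage, laccases, peroxidases, dirigent proteins, regulators and side branches. Of 118 genes listed, 57 had a homolog and 46 of these, beside the 7, were tested. Of the 46, 16 rose and 4 fell in aquatic plants (adjusted p under 0.05 from edgeR), so that 43.5% were called, against 16.4% of all homologs. Their median log2 fold change was 0.76, against -0.02 over all homologs. The lists were chosen with earlier results of these data known, so this share and median are a description. With the replicate number as a block, 7 were higher and 3 lower. Of the 20 calls 9 were kept with the block, 11 were lost with an adjusted p of 0.0524 to 0.102, and BAN was gained. Over all homologs the block gave 445 calls (5.46%) in place of 1336. Without aquatic replicate 2, 0 of the 46 passed in edgeR, and 24 at an unadjusted p under 0.05, against 30.1% of all homologs in that fit. Without terrestrial replicate 3, without terrestrial replicate 2 and without aquatic replicate 3, 2, 3 and 10 passed.

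**Figure D4:**
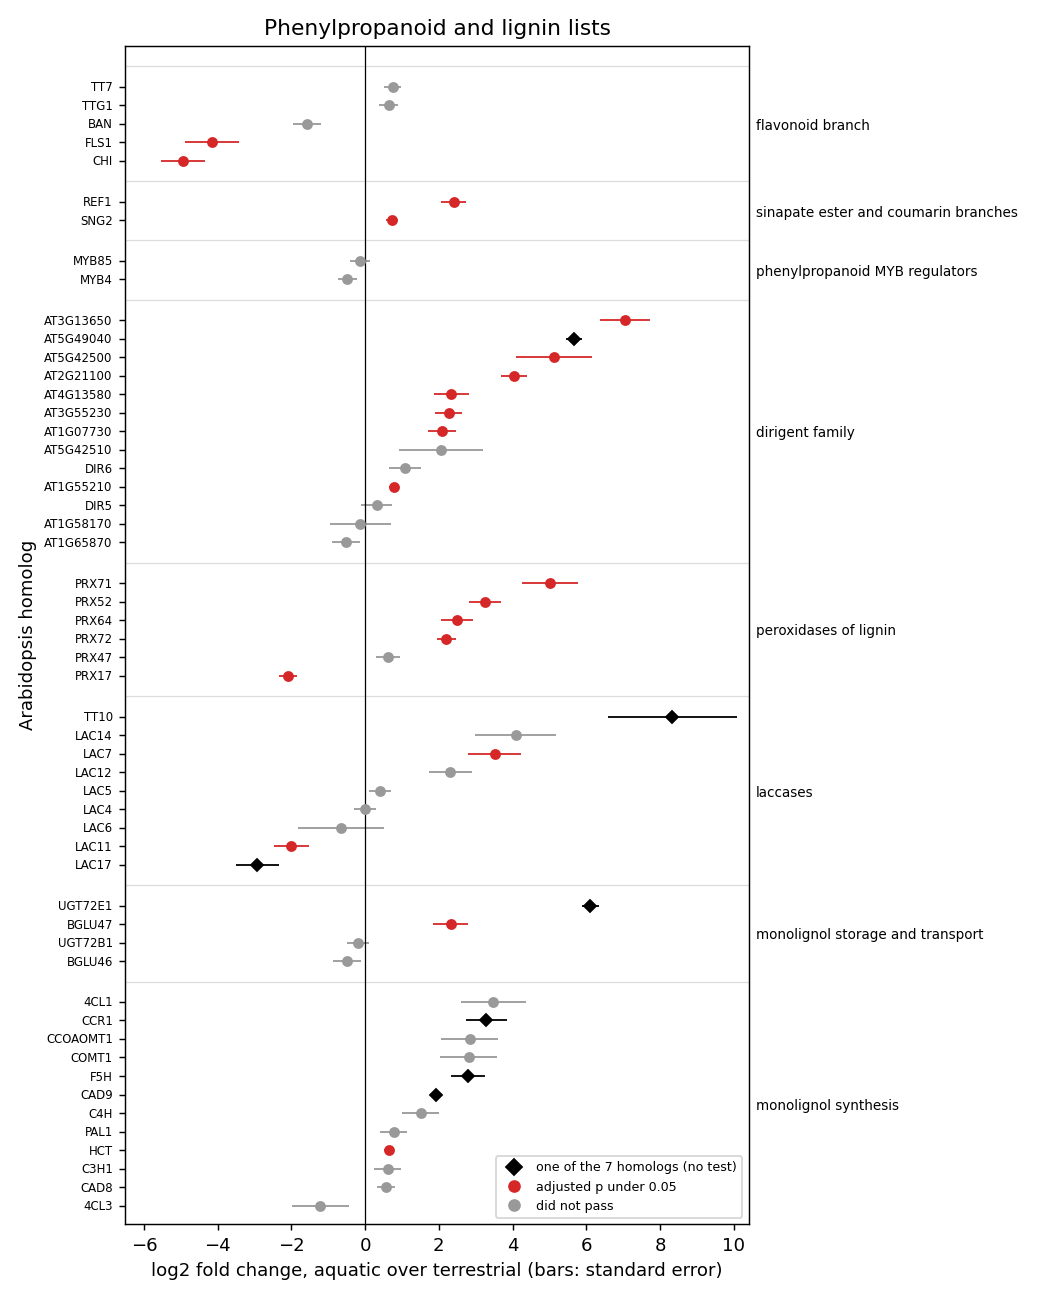
Log2 fold change of aquatic over terrestrial plants (x axis) with its standard error for each tested homolog of the phenylpropanoid and lignin lists (y axis), in red where adjusted p was under 0.05, in grey where not, and as black diamonds for the 7 homologs, which were not tested. Peroxidases and dirigent proteins lie mostly to the right, with 4 of 6 and 7 of 12 higher. CHI and FLS1 of the flavonoid branch lie far to the left, although the CPM of the conditions overlapped for CHI.

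Among 9 other genes of monolignol synthesis, HCT, the acyltransferase of the shikimate ester step, rose by 0.65 on the log2 scale (adjusted p = 0.0402 from edgeR, 0.0946 with the block and 0.0616 with upper quartile scaling). Its libraries overlapped, with 129, 58.5 and 70.8 CPM on land and 235, 98.7 and 89.0 CPM under water. With HCT, 11.1% of the 9 were called, against 16.4% of all homologs, and the other 8 did not pass. Of these, 4CL1, which makes the CoA ester, was at 3.47 on the log2 scale (edgeR adjusted p = 0.0562). CCOAOMT1 and COMT1, the O-methyltransferases of the ring, had 2.83 (edgeR adjusted p = 0.0644) and 2.81 (edgeR adjusted p = 0.0668). C4H, the cinnamate hydroxylase, had 1.503 (edgeR adjusted p = 0.0928). For these 4 the conditions did not overlap and the 14-day aquatic library was the highest, as for F5H and CCR1. COMT1 had 36.2, 34.6 and 32.1 CPM on land and 1029, 176 and 73.3 CPM under water. For PAL1, which opens the pathway, the aquatic range of 848 to 3060 CPM overlapped with the terrestrial 771 to 905 CPM. The conditions also overlapped for C3H1 and CAD8, at 0.61 and 0.56 on the log2 scale, and for 4CL3, the only negative one of the 9 at -1.22 (edgeR adjusted p = 0.306). The latter had 31.5, 111 and 139 CPM on land and 63.6, 34.2 and 20.6 CPM under water. Among 3 other genes of storage and transport, BGLU47, a glucosidase, rose by 2.32 (adjusted p = 0.0354 from edgeR, 0.0834 with the block), although its conditions overlapped, with 2.29, 0.953 and 0.771 CPM on land and 16.9, 1.86 and 4.93 CPM under water. BGLU46 and UGT72B1 had log2 fold changes of -0.50 and -0.20 and did not pass.

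Of 7 other laccases, LAC7 rose by 3.52 on the log2 scale (adjusted p = 0.0354 from edgeR, 0.0939 with the block) and LAC11 fell by 2.002 (adjusted p = 0.0479 from edgeR, 0.102 with the block). LAC11, which acts in lignin polymerisation with LAC4 and LAC17 in *Arabidopsis*, had 8.49, 14.2 and 21.3 CPM on land and 0.720, 5.57 and 7.15 CPM under water. As for LAC17, the conditions did not overlap and the 14-day library was the lowest in both. LAC4, the main partner of LAC17 in *Arabidopsis* stems, had a log2 fold change of -0.01.

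Of 6 peroxidases linked to lignin, 4 rose and 1 fell. PRX71 had 38.2, 54.8 and 8.93 CPM on land and 1419, 1054 and 859 CPM under water. This was a log2 fold change of 5.01 (adjusted p = 0.0193 from edgeR). In edgeR PRX52 rose by 3.26 (adjusted p = 0.0163, 0.0524 with the block), PRX64 by 2.49 (adjusted p = 0.0245) and PRX72 by 2.20 (adjusted p = 0.0131). PRX17 fell by 2.09 (adjusted p = 0.0128 from edgeR), from 71.4 to 86.9 CPM on land to 12.9 to 24.0 CPM under water.

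Of 12 other dirigent homologs, 7 rose and 0 fell, and the median of their log2 fold changes was 2.07. The largest were AT3G13650, which rose by 7.05 (adjusted p = 0.0112 from edgeR), AT5G42500 by 5.12 (adjusted p = 0.0353, 0.1005 with the block) and AT2G21100 by 4.03 (adjusted p = 0.00934). AT2G21100 had 21.0, 48.5 and 21.7 CPM on land and 335, 628 and 531 CPM under water, while AT3G13650 had at most 1.43 CPM on land and 58.2 to 211 CPM under water. AT4G13580, AT3G55230 and AT1G07730 rose by 2.34, 2.26 and 2.08, and AT1G55210, the neighbour of the AT5G49040 transcript, by 0.78 (adjusted p = 0.0257 from edgeR, 0.0659 with the block). AT4G13580 did not pass with the block (edgeR adjusted p = 0.0686).

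In other branches of phenylpropanoid metabolism, 2 of 2 homologs of sinapate ester and coumarin synthesis rose and 2 of 5 of the flavonoid branch fell, while 0 of 2 regulators passed in edgeR. REF1, the aldehyde dehydrogenase that makes ferulate and sinapate, rose by 2.40 (adjusted p = 0.0178 from edgeR, 0.0550 with the block), and SNG2, a sinapoyltransferase, rose by 0.73 (adjusted p = 0.0398 from edgeR, 0.0630 with the block and 0.0609 with upper quartile scaling). In the flavonoid branch CHI, chalcone isomerase, fell by 4.93 (adjusted p = 0.0146 from edgeR). Its conditions overlapped, with 3.22, 93.4 and 147 CPM on land and 0.450, 4.13 and 2.03 CPM under water. Its harvest difference, 14 days minus 11 days, was -4.64 on the log2 scale. FLS1, flavonol synthase, fell by 4.15 (adjusted p = 0.0250 from edgeR, 0.0677 with the block). FLS1 had 47.3, 242 and 444 CPM on land and 0.360, 26.5 and 36.0 CPM under water, and in both conditions the 14-day library was the lowest. The lignin regulator homologs MYB85 and MYB4 had log2 fold changes of -0.15 (0.055 in limma on log2 FPKM) and -0.48 (adjusted p = 0.756 and 0.224 from edgeR).

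The homologs with the pattern most like that of each of the 7 were found by the root mean square difference of log2 CPM, each centred on its mean, over the 6 libraries, among homologs with a mean of at least 50 counts. UGT72E1 and AT5G49040 were the nearest to each other, at 0.398, followed by AT2G25410 at 0.417 for UGT72E1 and AT4G01700 at 0.430 for AT5G49040. The nearest to F5H were APD9 at 0.214 and TBL10 at 0.233, to CCR1 the chitinase EP3 at 0.215 and PRX52 at 0.248, and to CAD9 AT4G10955 at 0.150 and the zinc transporter ZAT at 0.156. LAC17 was nearest to IRX6, a protein of cellulose deposition in secondary walls, at 0.144, and to AT2G37870 at 0.254. IRX6 had 2.29, 5.92 and 8.74 CPM on land and 0, 0.894 and 1.66 CPM under water, the same order of libraries as LAC17. TT10 had no close neighbour, with 0.821 to AT4G20860 and 0.842 to AT1G75280, an isoflavone reductase homolog. The libraries share their harvest and depth, and the distances include the condition difference by which the 7 were chosen. These distances are therefore a description, and nothing is read from the nearness of UGT72E1 and AT5G49040, both among the 7.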

How the data were processed

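RNA from aquatic and terrestrial shoots was sequenced in 6 libraries, 3 per condition, grouped by the labels. Trinity was used by the authors for de novo assembly, and TopHat and Cufflinks are named without versions in the submitters' processing notes. The expected counts deposited by the authors are estimated fragments per transcript and were whole numbers in all 6 files. The deposited TPM values are per length and were scaled by the authors over every transcript of a file. The deposited FPKM values, per length and sequenced fragments, precede the quantile normalization of the authors' methods. The authors' deposited annotation gives, for 20788 transcripts, the best protein match with its bit score and its percent of identical residues, by a search tool not given in the sources used here. Of its columns, 6 with values per library were not used. Tables of the authors on leaf GO terms, with pooled FPKM and log2 ratios, were not used.

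Expected counts were summed per *Arabidopsis* match and tested over 8154 homologs with a minimum count of 10 in edgeR 4.0.16 (quasi-likelihood, TMM, harvest and condition as terms, R 4.3.3), with Benjamini-Hochberg adjustment. Standard errors were taken as the size of the log2 fold change divided by the root of the F statistic. Log2 CPM of ratios and distances had a prior count of 1. DESeq2 1.42.0 and limma 3.58.1 on log2 FPKM served as alternatives, and the fits were tested on simulated data. The 7 homologs and all lists were chosen with earlier results of these data known. Named were the 7 homologs, their transcripts with at least 10% of the counts of a homolog (others by range), every listed homolog that passed, otherwise the 2 with the smallest adjusted p of a list, and the 2 nearest homologs. Other homologs of the lists were named after their values were seen. Depth was 25345718 to 33978729 counts, and intervals cover counting error only.

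After the mean of each condition was subtracted, same-numbered libraries correlated across homologs at 0.662, 0.545 and 0.465 for replicates 1, 2 and 3, so values from a model with number as a block are given where they changed a call. The pairing is a hint from the data, since replicates 2 and 3 across numbers had 0.475 and 0.597, and the labels name no shared batch.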

Additional observations from a re-analysis of the deposited data

Results flagged for a closer look

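The assembly genes of the 7 homologs also hold 5 transcripts without a match in the annotation, of which 2 had more counts under water and 3 had fewer. The transcript c62565_g2_i1, from the assembly gene of the F5H-matched transcript of 39% identity, had 2, 3 and 11 counts on land and 48, 180 and 48 counts under water, 276 in all aquatic libraries. Its neighbour c62565_g2_i2 had 1, 1 and 3 counts on land and 5, 45 and 9 counts under water, 59 in all. For both, every aquatic library lay above every terrestrial one per scaled count, whereas the F5H-matched transcript of the same assembly gene overlapped between conditions. Aquatic replicate 2 had the most for both, the library in which 1643 transcripts with a fungal match were detected, and the part of these was not tested. They were looked at because the comparisons above do not use transcripts without a match. The other 3, from the assembly gene of LAC17, had 4 to 6, 7 to 45 and 4 to 19 counts on land and 0 to 3, 0 to 8 and 0 to 1 counts under water.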

How the results depend on the processing

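The direction of the aquatic difference of the 7 homologs was kept in every alternative that gave a value. Single transcripts aside, the range over these was 1.75 to 1.95 for CAD9, 5.42 to 5.78 for AT5G49040, 4.78 to 6.24 for UGT72E1, 2.59 to 3.81 for CCR1, 2.31 to 4.52 for F5H, -3.39 to -1.51 for LAC17 and 3.96 to 9.37 for TT10. Counts of calls depended on the fit. For all homologs, 1336 calls became 2684 with DESeq2, 445 with the replicate block and 34 without the harvest term, and without single libraries they ran from 0 (without aquatic replicate 2, 2478 at an unadjusted p under 0.05) to 1628 (without aquatic replicate 1). For the 46 pathway homologs, 20 calls became 10 with the replicate block and 2 without the harvest term, and 0 to 23 without single libraries, while DESeq2 and 9 other settings gave 15 to 28. The 11-day harvest alone, a setting chosen after seeing the data, gave 24 and over all homologs 1618. Of the 20 calls, that of HCT was lost in 12 of 19 alternatives and that of SNG2 in 12 of 18. The call of BGLU47 was lost in 11 of 18 and that of LAC7 in 9 of 19. Each other call of the 20 was lost in 2 to 6. Of the calls over all homologs 58.6% were higher, against 40.0% with upper quartile scaling and 46.8, 47.4 and 47.0% in limma on log2 FPKM, and in the harvest contrast 45.6% against 36.2% with upper quartile scaling. For the harvest, 2754 homologs became 3608 with DESeq2 and 1093 to 2704 without single libraries. The 1 call among the 7 became 3 with DESeq2, 2 in limma without a filter, 0 with upper quartile scaling, 0 with matches of at least 50% identity, which leave UGT72E1 out, and 0 to 3 without single libraries. For the aquatic effect between harvests, 0 calls became 1 with DESeq2 and 0 to 1 without single libraries. The cause was not tested.

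The harvest difference of F5H ran from -0.12 to 1.26 without single libraries, and that of TT10 from -1.88 to 1.75, with 0.28, 0.57 and 0.25 in limma on log2 FPKM. The aquatic effect on TT10 between harvests ran from -0.84 to 4.995 without single libraries. The aquatic log2 fold change of MYB85 had 0.055, 0.135 and 0.038 in limma. With 15 terrestrial counts of TT10 and 1 count of LAC17 in aquatic replicate 1, depth limits the size of both differences. With the replicate block the aquatic log2 fold change of TT10 was 7.39. Among the listed homologs and markers, the block changed no other call than those given above. Weak matches of 6 of the 16 transcripts, with under 50% identity, limit the names.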
